A study of Mus musculus with 18 samples.

Results

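The genes described here were made as new RNA in a short pulse after ERK was switched on in mouse embryonic stem cells: high at 2 h and back near the start level at 8 h. They are 61 of the 25897 genes in the count table. They were chosen on the libraries of rescued cells alone, from CPM, a gene's count scaled by the total of its library. A gene needed a mean of at least 5 CPM at 2 h, a 2 h mean at least 4 times the 0 h mean, and an 8 h mean below 1.6 times the 0 h mean, with 0.2 CPM added to each mean. Symbols starting with Egr, Fos, Jun, Dusp, Ier, Klf or Zfp were left out, which removed 1 gene that met the limits, Dusp14. Of 274 genes induced at least 4-fold at 2 h to at least 5 CPM, 131 were still at least 4-fold up at 8 h (called sustained below), and 81 lay between 1.6-fold and 4-fold, both counts with the left-out families included.

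All cells were of the E14tg2a line, of 129SV background, and in all of them the endogenous Med24 had been knocked out. They carried a FLAG-Med24 cDNA under tetracycline control and a cRAF-ErT2-T2A-RTTA cassette, whose kinase part is turned on by 4-hydroxytamoxifen (4OHT). KO cells were kept without doxycycline for several passages, and WT cells, which are therefore rescued knockout cells, were kept with 500 nM doxycycline. Before stimulation both spent 24 h in serum medium containing LIF and 250 nM PD173074, an FGF receptor inhibitor, after growth with 2 µM Chir99021, a GSK3 inhibitor. KO and WT cells received no 4OHT (0 h) or 250 nM 4OHT for 2 h or 8 h, and each of the 6 groups held 3 libraries, from clones A, B and C. New RNA was labelled with 5 mM ethynyl uridine for the last 15 min and captured, so the counts follow RNA made in that window. Med24 and doxycycline differ together between KO and WT, so their effects cannot be told apart.

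ERK is a kinase that phosphorylates transcription factors already present in the cell, such as the ternary complex factors bound beside SRF, so that a first wave of genes is transcribed without new protein. Many of these genes are shut off within hours, through feedback phosphatases and repressors made in the same wave, while others stay on. Mediator is the large complex that carries signals from DNA-bound factors to RNA polymerase II, and Med24 is a subunit of its tail, which contacts such factors.

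Library totals ranged from 6691177 to 14541145 counts. Med24 itself stood at 34.0 to 49.2 CPM in KO libraries and at 515 to 602 CPM at 0 h, 1520 to 1775 CPM at 2 h and 399 to 407 CPM at 8 h in WT libraries. The 24 genes above 1000 CPM took 20.2% to 26.8% of counts in 15 libraries but 36.3% in KO 2 h clone A, 38.4% in KO 8 h clone B and 45.6% in KO 8 h clone C, and results that rest on these 3 libraries are also given without them. Clone A alone then stands for KO cells at 8 h, so a call lost there can follow from fewer libraries. The 8 stem cell markers were detected in every group, at a summed 1553 to 2363 CPM. The 7 fibroblast markers summed to 0.707 to 8.77 CPM, with Lum at 0 counts in every group. The 6 primitive endoderm markers summed to 55.7 to 68.4 CPM in KO and 31.5 to 31.8 CPM in WT libraries at 0 h, 33.7 to 44.4 CPM in KO and 16.0 to 26.1 CPM in WT libraries at 2 h, and 23.0 to 29.3 CPM in KO and 8.82 to 9.74 CPM in WT libraries at 8 h. Their part in the differences between KO and WT cells, and that of the WT Med24 level at 2 h, was not tested. The Med24 and marker levels above, and levels from here on unless stated otherwise, are CPM scaled by TMM. This normalization keeps a few abundant genes from setting the scale. On it, a count of 0 allows up to 3 counts, which equal 0.196 to 0.629 CPM. Levels are not divided by gene length, so they are compared between samples and not between genes.

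The WT values follow from how the genes were chosen and are described without a test. Member means in WT cells ran over 0.296 to 70.0 CPM at 0 h, 5.12 to 656 CPM at 2 h and 0.227 to 99.4 CPM at 8 h, with Baiap2 highest at 2 h. Values near the limits are given on CPM before TMM scaling, with 0.2 CPM added for ratios, as in the choice. Members just inside the 2 h limit were Hivep1, Trp53i11 and Usp35, with 2 h over 0 h ratios of 4.01, 4.02 and 4.06. Just outside were Des, Tec and Jak2, at 3.96, 3.96 and 3.955. Near the 8 h limit, Baiap2, Shisa5 and Hivep1 had 8 h over 0 h ratios of 1.59, 1.54 and 1.52, while Nell2, Spsb1 and Micall1 stood at 1.602, 1.61 and 1.63. On TMM-scaled means without the added 0.2 CPM, the ratios of Baiap2, Shisa5 and Hivep1 were 1.67, 1.63 and 1.596. Run on TMM-scaled CPM, the rule chose 74 genes, 59 of them members. At the level limit, Cyp2d22, Elfn2 and Chst1 had WT 2 h means of 5.04, 5.63 and 6.47 CPM before TMM scaling. Sox10, Sstr3 and Ifitm10 missed it at 4.34, 4.21 and 3.88 CPM. When the same rule was run on pairs of WT clones, it chose 63, 70 and 60 genes, and in the clone left out (A, B and C in that order) 52, 56 and 56 of them were at least 4-fold up at 2 h. The 8 h limit was met there by 61, 60 and 53. These libraries also chose the members, and shares over all genes were not counted, so the counts only describe the choice.

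In KO cells, whose libraries the rule did not use, the 2 h rise was present for all 61 members. Every member was higher at 2 h than at 0 h (edgeR quasi-likelihood test, adjusted p under 0.05 over 14128 genes tested), where 31.5% of all tested genes were higher and 35.2% lower. All 61 passed the filter on low counts, which their required WT level at 2 h brings with it. The median log2 fold change of the members was 2.61, against -0.05 over all genes tested, and single members ranged over 0.77 (Dopey2) to 7.27 (Nptx1). In 60 of the 61 the lowest KO 2 h library lay above the highest KO 0 h library, and in the remaining gene, Trim72, the groups overlapped. In all 61 each clone was higher at 2 h than at 0 h. The shares of all tested genes without overlap, or higher in each clone, were not counted for KO 2 h against KO 0 h. In bulk RNA of this kind, fewer cells responding and less new RNA per cell cannot be told apart. At 8 h in KO cells 16 members were higher than at 0 h, 8 were lower and 37 were not called, against 28.2% higher and 29.6% lower among all tested genes. These are 26.2% and 13.1% of the members, the first of them near the background, and the members' median log2 change was -0.04. From 2 h to 8 h in KO cells 58 members fell and none rose, against 27.7% lower and 29.4% higher among all genes tested. The 3 not called were Shisa5, Ccnd2 and Trim72. Without the 3 libraries with a high share of abundant genes, 61 members were higher at 2 h, 58 fell from 2 h to 8 h, and at 8 h 15 were higher than at 0 h and 6 lower, with 4 of the 8 lower members still among them. With library totals in place of TMM the balance at 8 h turned round, to 6 higher and 20 lower. Without KO 8 h clone A 16 were higher and 4 lower.

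**Figure D1:**
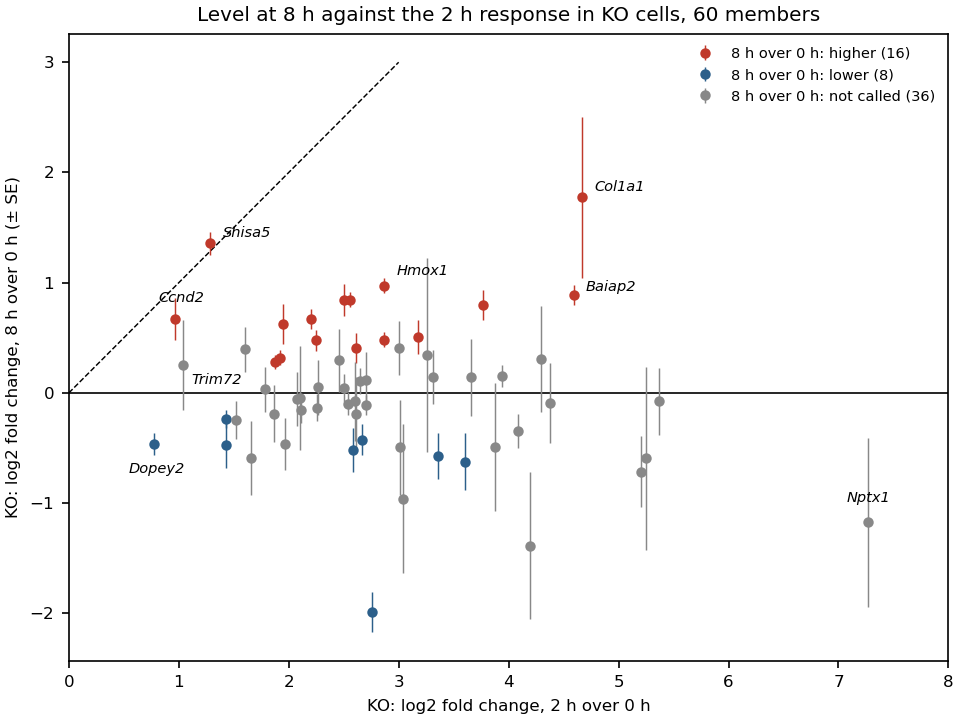
Log2 fold change at 8 h over 0 h (vertical axis, ± SE) against that at 2 h over 0 h (horizontal axis) in KO cells for 60 members, coloured by the call at 8 h. Points on the solid line are back at the start level, and Shisa5, with 1.28 at 2 h and 1.36 at 8 h, lies close to the dashed line of equal change. Elfn2, with 1 count over the KO 8 h libraries, is left out.

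The members were sorted into 5 groups by what their proteins are known to do, and positions are those of GRCm38 (mm10). Cell-surface proteins, channels and vesicle proteins were the largest group, 18 members, with a KO 2 h median log2 change of 2.68. Ptprs (chr17:56412426-56476483, minus strand), a receptor tyrosine phosphatase that binds proteoglycans, had 64.0, 59.3 and 59.1 CPM in KO clones A, B and C at 0 h, 787, 823 and 877 CPM at 2 h, and 69.8, 113 and 144 CPM at 8 h. In WT clones it had 76.6, 63.9 and 69.5 CPM at 0 h, 566, 627 and 619 CPM at 2 h, and 73.5, 74.8 and 67.5 CPM at 8 h. All 3 KO libraries at 2 h were above all 3 WT libraries, and the KO rise was 3.77 ± 0.13 on the log2 scale (SE, adjusted p = 1.55e-21). At 8 h Ptprs was still higher in KO cells than at 0 h (log2 0.80 ± 0.13), with clones B and C, the libraries of high abundant-gene share, at the top. Without the 3 such libraries that change was 0.22.

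Shisa5 (chr9:109038565-109057777, plus strand), a membrane protein of the endoplasmic reticulum and nuclear envelope known as a p53 target, stayed up at 8 h in KO cells. KO clones stood at 10.6, 12.6 and 11.4 CPM at 0 h, 26.4, 29.4 and 28.6 CPM at 2 h, and 27.6, 28.6 and 34.2 CPM at 8 h. WT clones stood at 9.51, 8.63 and 10.6 CPM at 0 h, 46.8, 43.7 and 48.6 CPM at 2 h, and 15.4, 14.7 and 16.6 CPM at 8 h. In KO cells the gene rose by log2 1.28 ± 0.10 at 2 h (adjusted p = 3.34e-12) and was log2 1.36 ± 0.11 above 0 h at 8 h (adjusted p = 2.21e-12). Its KO change from 2 h to 8 h, log2 0.07, did not pass the test (adjusted p = 0.567). Its KO libraries were all below its WT libraries at 2 h and all above them at 8 h.

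Both genes hold a full cAMP response element, TGACGTCA, the site bound by CREB and ATF factors, in the 300 bases around the start site that RefSeq gives (GRCm38.p6, 250 bases before it and 50 after). They were the only 2 of 39 members with a promoter in the table that did (5.13%, against 3.42% of promoters of tested genes and 2.03% of all promoters there), and are printed because they share this exact site although Ptprs fell from 2 h to 8 h in KO cells and Shisa5 was not called lower. Capitals mark the element. In Ptprs it lies just downstream of the start, and in Shisa5 it lies at the start, which is internal to the gene's annotated span.
Ptprs, chr17:56476431-56476730, minus strand: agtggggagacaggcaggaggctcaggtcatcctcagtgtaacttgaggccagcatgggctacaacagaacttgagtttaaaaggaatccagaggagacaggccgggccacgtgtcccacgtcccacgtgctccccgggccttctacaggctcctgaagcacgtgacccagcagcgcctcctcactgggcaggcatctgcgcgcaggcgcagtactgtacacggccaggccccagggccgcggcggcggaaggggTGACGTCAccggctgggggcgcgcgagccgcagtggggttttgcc
Shisa5, chr9:109054616-109054915, plus strand: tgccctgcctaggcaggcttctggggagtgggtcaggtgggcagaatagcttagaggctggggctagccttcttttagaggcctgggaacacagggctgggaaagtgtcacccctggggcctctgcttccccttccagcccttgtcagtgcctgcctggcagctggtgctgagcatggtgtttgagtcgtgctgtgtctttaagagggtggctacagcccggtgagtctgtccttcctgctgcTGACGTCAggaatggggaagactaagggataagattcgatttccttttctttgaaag
The other motifs were searched on both strands in the same windows. The AP-1 site TGANTCA was in 5 member promoters, those of Tmem37, Zbtb46, Brdt, Me1 and Cbarp (12.8%, against 6.44% of tested and 8.97% of all promoters). The EGR site GCGTGGGCG was in 3, those of Hic1, Hivep1 and Tnfaip8l1 (7.69%, against 1.42% and 0.707%). The ETS site CCGGAAGT was in 1, that of Itgb1bp1 (2.56%, against 8.54% and 4.31%), and the TATA box TATAAA in 2, those of Baiap2 and Adamts1 (5.13%, against 8.8% and 15.7%). Neither the SRF CArG box (1.58% of tested and 1.81% of all promoters) nor the octamer ATTTGCAT (1.64% and 1.97%) was found in the member windows. Among the 90 sustained genes with a promoter in the table, the shares were 16.7% for the AP-1 site, 3.33% for the EGR site and 3.33% for the ETS site. They were 21.1% for the TATA box, 1.11% for the cAMP response element, 3.33% for the SRF CArG box and 4.44% for the octamer. None of these letters overlaps another motif's match in a member. With 39 promoters each count is small, and a match of letters is not a bound site.

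Sema6a (chr18:47235598-47368870, minus strand), a transmembrane semaphorin that guides axons, had 6.66, 4.24 and 5.71 CPM in KO clones at 0 h, 13.7, 18.3 and 17.6 CPM at 2 h, and 8.67, 5.99 and 6.08 CPM at 8 h. WT clones had 5.76, 5.01 and 4.68 CPM at 0 h, 42.6, 42.9 and 46.9 CPM at 2 h, and 5.36, 3.92 and 6.96 CPM at 8 h. The KO rise was log2 1.61 ± 0.17, and the KO and WT libraries at 2 h were well apart although those at 0 h overlapped. Cbarp (chr10:80130451-80140835, minus strand), a negative regulator of voltage-gated calcium channels, had a smaller gap at 2 h: 141, 171 and 170.5 CPM in KO clones at 2 h, against 181, 198 and 191 CPM in WT clones. It started at 24.6, 23.9 and 29.2 CPM in KO clones and 23.2, 27.1 and 23.2 CPM in WT clones, and ended at 30.6, 25.6 and 25.8 CPM in KO clones and 44.0, 31.6 and 39.7 CPM in WT clones. Its KO rise was log2 2.64 ± 0.093.

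Trp53i11 and Tspan18 are neighbours on chromosome 2, on opposite strands, whose 3′ ends meet, so that reads past the end of one fall in the other. Tspan18 (chr2:93201760-93334505, minus strand), a tetraspanin, had 1.84, 1.72 and 1.22 CPM in KO clones at 0 h, 29.9, 35.5 and 34.5 CPM at 2 h, and 1.31, 1.66 and 1.68 CPM at 8 h. WT clones had 1.75, 1.53 and 1.32 CPM at 0 h, 28.9, 33.7 and 28.3 CPM at 2 h, and 0.850, 0.506 and 2.09 CPM at 8 h. KO and WT libraries overlapped at every time, and the KO rise was log2 4.37 ± 0.18 (adjusted p = 4.36e-19). Trp53i11 (chr2:93187548-93201759, plus strand), a p53-inducible membrane protein, had 14.1, 15.3 and 15.6 CPM in KO clones at 0 h, 59.7, 68.8 and 65.4 CPM at 2 h, and 12.4, 12.6 and 16.6 CPM at 8 h. WT clones were higher at 0 h and 2 h, with 20.8, 23.0 and 24.4 CPM and 98.8, 105 and 104 CPM, and had 17.97, 16.3 and 21.3 CPM at 8 h. KO clones rose by log2 2.11 ± 0.092, and the KO-below-WT gap at 2 h was already there at 0 h.

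Among the remaining surface members, Slc24a3 (chr2:145167754-145642166, plus strand), a sodium, potassium and calcium exchanger whose span of 474 kb is the longest of the set, reached 15.0, 17.4 and 16.7 CPM in KO clones at 2 h, against 11.7, 11.1 and 13.3 CPM in WT clones. It started at 0.689, 0.908 and 0.851 CPM in KO clones and 1.25, 0.835 and 0.480 CPM in WT clones, and at 8 h had 0.907, 0.166 and 2.31 CPM in KO clones and 0.654, 0.885 and 0.580 CPM in WT clones. Elfn2 (chr15:78667331-78718771, minus strand), a leucine-rich repeat membrane protein, is near the detection limit: it had 8, 49 and 1 counts in all at 0, 2 and 8 h over the 3 KO libraries and 10 and 20 counts at 0 and 8 h over the WT libraries. It stood at 2.44, 2.13 and 1.64 CPM in KO clones at 2 h, against 5.15, 6.13 and 5.88 CPM in WT clones. Its start was 0.115, 0.303 and 0.486 CPM in KO clones and 0.501, 0.278 and 0.480 CPM in WT clones. At 8 h it had 0, 0.166 and 0 CPM in KO clones and 0.719, 0.632 and 0.464 CPM in WT clones, and with 1 count no KO fold is given for that time. The synaptic vesicle protein Sv2c rose by log2 3.61 ± 0.14 in KO cells, and its 2 h mean was 40.8 ± 4.17 CPM in KO cells and 93.8 ± 3.84 CPM in WT cells (SD, n = 3 each). Lad1, an anchoring-filament protein of epithelia, averaged 81.6 CPM in KO cells and 66.7 CPM in WT cells at 2 h, with all KO libraries above all WT libraries, as they were at 0 h. The group also held Igdcc3, Tmem37, Grm4, Shisa4, Cd82, Rhbdl3 and Kcnd3, whose KO rises ran over log2 1.66 (Cd82) to 3.66 (Rhbdl3). At 8 h in KO cells 4 of the 18 were higher than at 0 h (Ptprs, Lad1, Igdcc3 and Shisa5) and 1 lower (Sv2c, log2 -0.62 ± 0.26, adjusted p = 0.0402). Without the 3 libraries of high abundant-gene share the Sv2c change was -0.72.

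**Figure D2:**
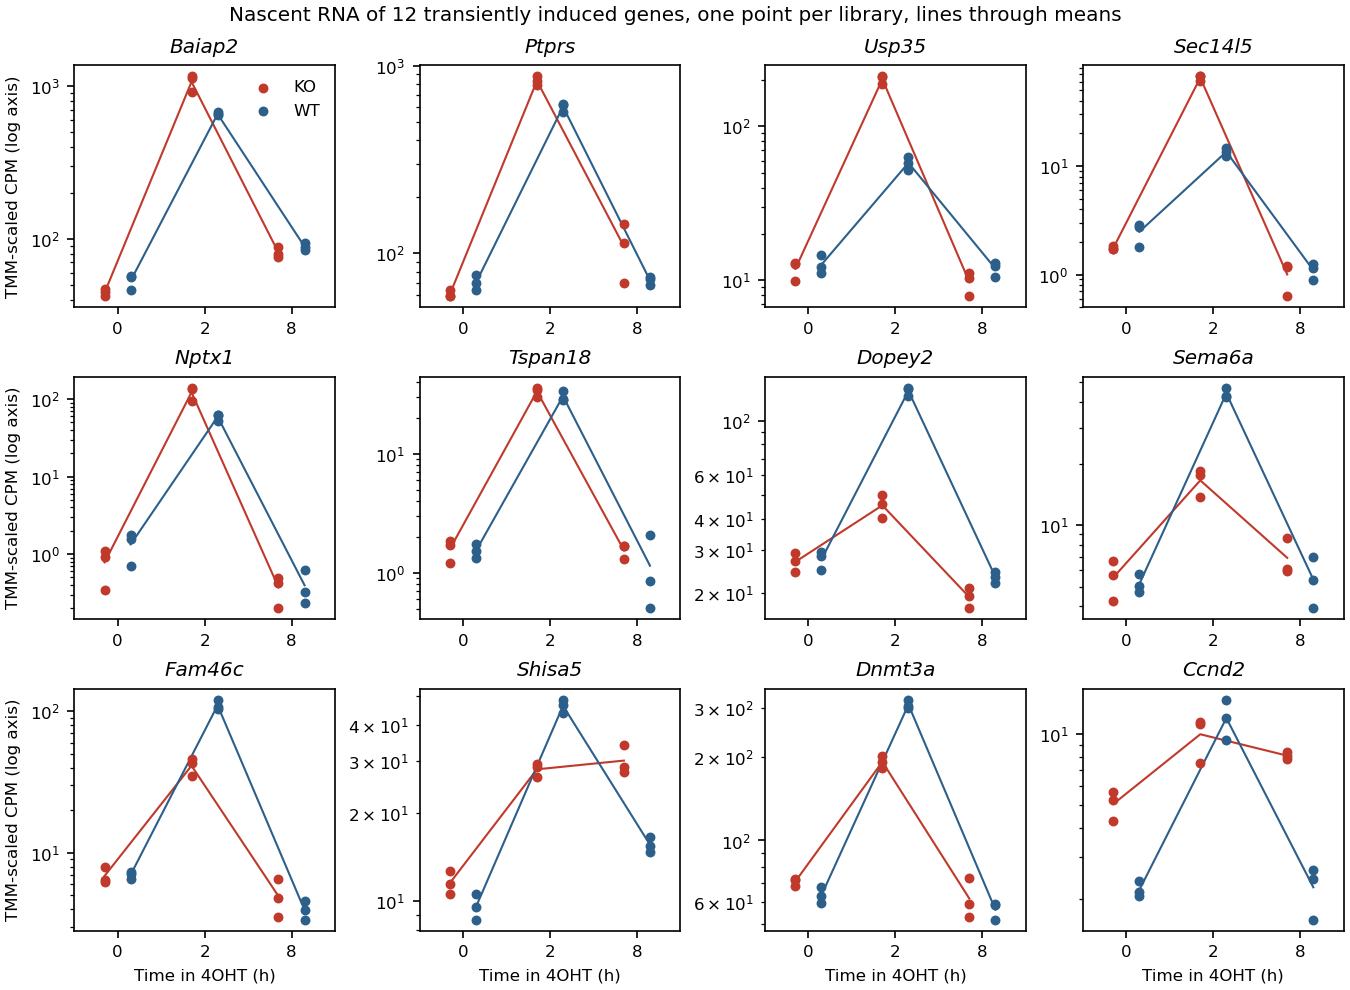
TMM-scaled CPM (log axis) at 0, 2 and 8 h of 4OHT for 12 members, with 1 point per library and lines through the means of 3 clones, KO left of WT at each time. Usp35 and Sec14l5 have KO points above WT points at 2 h, Dopey2, Sema6a and Fam46c have them below, and Shisa5 in KO cells stands at 27.6 to 34.2 CPM at 8 h.

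Signalling and cytoskeletal proteins were 15 members, with a KO 2 h median log2 change of 2.45. Baiap2 (chr11:119942763-120006782, plus strand), an adaptor that ties membranes to the actin cytoskeleton, was the highest member at 2 h. KO clones had 41.9, 44.5 and 46.6 CPM at 0 h, 919, 1122 and 1160.2 CPM at 2 h, and 88.2, 79.1 and 76.5 CPM at 8 h. WT clones had 57.2, 46.4 and 55.8 CPM at 0 h, 642, 674 and 653 CPM at 2 h, and 88.0, 85.0 and 93.3 CPM at 8 h. All KO libraries exceeded all WT libraries at 2 h, the KO rise was log2 4.59 ± 0.084 (adjusted p = 4.64e-28), and KO cells were still log2 0.89 ± 0.09 above the start at 8 h (adjusted p = 8.47e-10). The gene stood close to its WT level at 8 h.

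Usp35 (chr7:97309380-97332020, minus strand), a deubiquitinase, showed a far larger pulse in KO cells. Its KO clones had 9.88, 13.02 and 12.8 CPM at 0 h, 188, 208 and 212 CPM at 2 h, and 7.86, 10.3 and 11.1 CPM at 8 h. Its WT clones had 14.6, 12.1 and 11.2 CPM at 0 h, 52.4, 63.2 and 58.2 CPM at 2 h, and 12.4, 10.5 and 12.9 CPM at 8 h. The KO 2 h mean was 3.49 times the WT 2 h mean, while KO and WT overlapped at 0 h and at 8 h. Gab2 and Kctd21 lie 434 and 307 bases from Usp35 on the other strand. At 2 h they changed by log2 1.94 and 0.75 in KO cells and by 0.77 and -0.66 in WT cells. Their part in the Usp35 counts was not tested. Synj2 (chr17:5941280-6044290, plus strand), a phosphoinositide phosphatase, overlapped between KO and WT at 2 h: 243, 269 and 287 CPM in KO clones and 263, 242 and 252 CPM in WT clones at 2 h. Its start was lower in KO cells, at 17.3, 17.6 and 17.1 CPM, against 30.4, 32.0 and 29.1 CPM in WT clones, and so was its 8 h level, at 18.8, 19.1 and 20.3 CPM in KO clones and 36.3, 33.1 and 34.3 CPM in WT clones. The KO rise of Synj2 was log2 3.94 ± 0.07.

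Ccnd2 (chr6:127125162-127152193, minus strand), cyclin D2, a driver of the G1 phase, had 4.25, 5.65 and 5.23 CPM in KO clones at 0 h, 11.3, 7.56 and 11.1 CPM at 2 h, and 8.06, 7.82 and 8.38 CPM at 8 h. WT clones had 2.13, 2.37 and 2.04 CPM at 0 h, 11.7, 9.38 and 13.98 CPM at 2 h, and 2.42, 2.66 and 1.62 CPM at 8 h. KO and WT overlapped at 2 h, and KO clones were the higher ones at 0 h and at 8 h. In KO cells the rise was log2 0.97 ± 0.18 (adjusted p = 2.46e-05), and the change from 2 h to 8 h, log2 -0.30, did not pass the test (adjusted p = 0.151). At 8 h Ccnd2 was log2 0.67 ± 0.19 above 0 h in KO cells (adjusted p = 0.00391).

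Gnao1, a G-protein alpha subunit, was lower at 8 h than at 0 h in KO cells (log2 -0.42 ± 0.14), and Adcy5, an adenylate cyclase, was higher (0.63 ± 0.18). Without the 3 libraries of high abundant-gene share, the Adcy5 change was 0.38 and the Gnao1 change -0.33. Cxxc4, an inhibitor of Wnt signalling, was above WT in all KO libraries at 2 h, with means of 14.5 CPM in KO cells and 7.66 CPM in WT cells. Itgb1bp1, Ppp1r13b, Rnd2, Agap2, Tnfaip8l1 and Mpp2, were all below WT in KO cells at 2 h, and their KO rises ran over log2 1.86 (Mpp2) to 2.51 (Itgb1bp1).

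Nuclear proteins were 10 members, with a KO 2 h median log2 change of 2.53. Dnmt3a (chr12:3806007-3914443, plus strand), the de novo DNA methyltransferase, had 68.6, 72.9 and 72.2 CPM in KO clones at 0 h, 183, 202 and 192 CPM at 2 h, and 53.0, 59.1 and 73.2 CPM at 8 h. WT clones had 68.0, 63.1 and 59.6 CPM at 0 h, 304, 300.3 and 322 CPM at 2 h, and 58.3, 51.7 and 58.9 CPM at 8 h. KO libraries were all above WT libraries at 0 h and all below them at 2 h, and the KO rise was log2 1.43 ± 0.071 (adjusted p = 2.79e-17). The 8 h change in KO cells, log2 -0.24 (adjusted p = 0.0136), was -0.12 without KO 8 h clone A and then did not pass the test (adjusted p = 0.221). Without the 3 libraries of high abundant-gene share the Dnmt3a change was -0.41. With library totals alone, which move the median of all genes tested to log2 -0.38, it was -0.61.

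Ddx11 (chr17:66123520-66152174, plus strand), a DNA helicase of sister chromatid cohesion, had 63.9, 61.7 and 66.9 CPM in KO clones at 0 h, 224, 245 and 238 CPM at 2 h, and 80.3, 74.7 and 77.6 CPM at 8 h. WT clones had 76.2, 61.4 and 68.8 CPM at 0 h, 372, 373 and 378 CPM at 2 h, and 80.2, 80.1 and 76.9 CPM at 8 h. The KO pulse was log2 1.88 ± 0.06 and stayed under the WT libraries, and the 8 h excess of log2 0.28 in KO cells was -0.08 with library totals alone. Hivep1 (chr13:42052021-42192537, plus strand), a zinc finger protein that binds enhancers of the NF-kappaB type, went the other way at 2 h, with 205, 222 and 233 CPM in KO clones and 181, 169 and 173 CPM in WT clones. It started at 38.1, 36.5 and 37.4 CPM in KO clones and 37.5, 42.0 and 37.0 CPM in WT clones. At 8 h it had 69.1, 68.4 and 62.9 CPM in KO clones and 62.0, 62.7 and 61.3 CPM in WT clones, which in KO cells was log2 0.85 ± 0.068 above the start (adjusted p = 3.78e-12).

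Chd3 (chr11:69343273-69369406, minus strand), a remodeller of the NuRD complex, had 11.0, 9.39 and 8.997 CPM in KO clones at 0 h, 56.0, 50.9 and 59.4 CPM at 2 h, and 13, 20.5 and 22.2 CPM at 8 h. WT clones had 12.9, 14.1 and 13.3 CPM at 0 h, 60.7, 61.6 and 62.0 CPM at 2 h, and 14.1, 15.3 and 14.04 CPM at 8 h. The KO 8 h excess, log2 0.85 ± 0.14, was highest in clones B and C and was 0.42 without the 3 libraries of high abundant-gene share. Scrt1 (chr15:76516203-76522499, minus strand), a neural repressor of the Snail family, was near the detection limit at rest, with 0.115, 0.606 and 0.365 CPM in KO clones and 0.876, 0.975 and 0.720 CPM in WT clones. It reached 12.5, 15.9 and 15.2 CPM in KO clones at 2 h, against 9.81, 12.4 and 14.5 CPM in WT clones, and its KO rise was log2 5.25 ± 0.31. Afterwards KO clones had 0.202, 0 and 0.629 CPM, where the 0 counts of clone B allow up to 0.499 CPM, and WT clones had 0.261, 0.126 and 0.696 CPM. Of the other nuclear members, Jade2 and Zbtb46 were below WT in KO cells at 2 h and still above the start at 8 h, Hic1 was below WT, Brdt was above WT, and Sertad4 overlapped. Zbtb46 was already below WT at 0 h, and it rose by log2 2.61 in KO cells and 2.48 in WT cells. Hic1, a transcriptional repressor, averaged 4.40 ± 1.37 CPM in KO cells and 12.3 ± 3.09 CPM in WT cells at 2 h (SD, n = 3 each).

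Matrix and secreted proteins were 7 members with the highest KO 2 h median, log2 3.87. Nptx1 (chr11:119538719-119547753, minus strand), a secreted pentraxin that clusters receptors at synapses, had the largest rise of all members in KO cells. KO clones had 0.345, 0.908 and 1.09 CPM at 0 h, 93.7, 139 and 134 CPM at 2 h, and 0.202, 0.499 and 0.419 CPM at 8 h. WT clones had 1.75, 0.696 and 1.56 CPM at 0 h, 52.5, 61.6 and 63.0 CPM at 2 h, and 0.327, 0.632 and 0.232 CPM at 8 h. The pulse was log2 7.27 ± 0.20 in KO cells (adjusted p = 1.97e-23), every KO library was above every WT library at 2 h, and both were near the detection limit before and after. Col26a1 (chr5:136741759-136883209, minus strand), a minor collagen, overlapped at 2 h, with 57.6, 63.8 and 68.8 CPM in KO clones and 65.4, 67.4 and 65.5 CPM in WT clones. It started at 1.26, 1.72 and 1.58 CPM in KO clones and 0.876, 1.11 and 0.720 CPM in WT clones. At 8 h it had 1.71, 0.832 and 1.68 CPM in KO clones and 1.24, 1.26 and 1.16 CPM in WT clones, so nothing of the KO rise of log2 5.37 ± 0.13 was detectable at 8 h (log2 -0.08 ± 0.30 against 0 h).

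Col1a1 (chr11:94936224-94953042, plus strand), the main chain of type I collagen and itself among the 7 fibroblast markers, had 0.115, 0.101 and 0.608 CPM in KO clones at 0 h, 6.11, 7.44 and 7.23 CPM at 2 h, and 0.202, 0.999 and 2.31 CPM at 8 h. WT clones had 0.751, 0.278 and 0.480 CPM at 0 h, 6.54, 7.01 and 7.44 CPM at 2 h, and 0.0654, 0.632 and 0.348 CPM at 8 h. KO and WT overlapped at 2 h, and the KO rise was log2 4.66 ± 0.44. The KO 8 h excess, log2 1.78 ± 0.73 (adjusted p = 0.0384), rests on 19 counts, mostly in clones B and C, and was -0.34 without the 3 libraries of high abundant-gene share. In the KO 8 h libraries the 7 fibroblast markers summed to 5.34 to 7.97 CPM, against 0.707 to 1.49 CPM in the KO 0 h libraries, and their part in this value was not tested. Plat, tissue plasminogen activator, was above WT in all KO libraries at 2 h (14.6 CPM in KO cells and 11.0 CPM in WT cells on average) and averaged 3.76 CPM in KO cells and 1.302 CPM in WT cells at 0 h. Col5a1 and the cartilage proteoglycan Acan were below WT at 2 h, and the metalloprotease Adamts1 overlapped, at 11.97 ± 3.95 CPM in KO cells and 7.41 ± 1.26 CPM in WT cells (SD, n = 3 each). Col5a1 was already below WT at 0 h, and it rose by log2 2.54 in KO cells and 2.44 in WT cells.

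Enzymes and other proteins were 11 members, with a KO 2 h median log2 change of 2.87. Sec14l5 (chr16:5147109-5187271, plus strand), of the lipid-transfer protein family of yeast Sec14, had the widest KO excess. KO clones had 1.72, 1.72 and 1.82 CPM at 0 h, 60.9, 67.2 and 67.1 CPM at 2 h, and 1.21, 1.17 and 0.629 CPM at 8 h. WT clones had 2.75, 1.81 and 2.88 CPM at 0 h, 12.4, 13.4 and 14.8 CPM at 2 h, and 1.24, 0.885 and 1.16 CPM at 8 h. At 2 h the KO mean was 4.81 times the WT mean, and the KO rise was log2 5.21 ± 0.14 (adjusted p = 3.07e-24). Its relative Sec14l3 met the numeric limits in KO but was no member. The WT 2 h mean of Sec14l3, 1.61 CPM before TMM scaling, was under the level minimum.

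Hmox1 (chr8:75093621-75100589, plus strand), haem oxygenase, which breaks down haem and is known as a stress gene, had 67.6, 69.6 and 63.2 CPM in KO clones at 0 h, 462, 480.3 and 522 CPM at 2 h, and 136, 119 and 139 CPM at 8 h. WT clones had 68.1, 63.5 and 59.9 CPM at 0 h, 353, 382 and 384 CPM at 2 h, and 103, 98.4 and 96.7 CPM at 8 h. KO libraries were above WT libraries at 2 h and at 8 h, and at 8 h KO cells stood log2 0.97 ± 0.069 above their start (adjusted p = 2.34e-13). Me1 (chr9:86581371-86695953, minus strand), malic enzyme, a source of NADPH, had 52.7, 48.4 and 55.6 CPM in KO clones at 0 h, 304, 366 and 349 CPM at 2 h, and 46.3, 46.3 and 53.7 CPM at 8 h. WT clones had 59.9, 70.6 and 58.0 CPM at 0 h, 315, 293 and 284 CPM at 2 h, and 48.9, 48.2 and 55.6 CPM at 8 h. The 2 h libraries overlapped, and the KO rise was log2 2.71 ± 0.076.

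Dopey2 (chr16:93711907-93810588), a protein of Golgi and endosome traffic, had the smallest rise. KO clones had 29.2, 24.3 and 26.9 CPM at 0 h, 40.3, 45.9 and 49.9 CPM at 2 h, and 19.4, 20.97 and 17.4 CPM at 8 h. WT clones had 28.2, 29.2 and 24.9 CPM at 0 h, 126, 134 and 136 CPM at 2 h, and 22.1, 24.4 and 23.3 CPM at 8 h. From overlapping levels at 0 h the KO pulse was log2 0.77 ± 0.085 (adjusted p = 2.59e-09), and the WT 2 h mean was 2.91 times the KO 2 h mean. At 8 h the KO level was below the start (log2 -0.46 ± 0.10, adjusted p = 0.000241).

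Trim72 (chr7:128003949-128011033, plus strand), a membrane repair protein of muscle, was the weakest case. It had 1.26, 2.32 and 1.09 CPM in KO clones at 0 h, 2.29, 3.31 and 4.05 CPM at 2 h, and 2.82, 0.832 and 1.47 CPM at 8 h. WT clones had 0.876, 1.81 and 1.32 CPM at 0 h, 8.93, 7.76 and 6.10 CPM at 2 h, and 2.22, 0.759 and 1.62 CPM at 8 h. The KO change of log2 1.04 ± 0.35 passed the test (adjusted p = 0.0104), but not without KO 0 h clone C (adjusted p = 0.0520), without KO 2 h clone C (0.0779) or with library totals alone (0.0650). Sowahb (chr5:93041123-93045022, minus strand), an ankyrin-repeat protein, had 4.94, 4.84 and 6.20 CPM in KO clones at 0 h, 13.6, 14.2 and 15.0 CPM at 2 h, and 3.93, 3.99 and 3.35 CPM at 8 h. WT clones had 3.63, 4.32 and 2.88 CPM at 0 h, 22.8, 25.02 and 25.7 CPM at 2 h, and 4.05, 4.93 and 6.50 CPM at 8 h. Its KO rise was log2 1.43 ± 0.15. Its fall below the start at 8 h, log2 -0.47 ± 0.21, sat at the threshold (adjusted p = 0.04996) and did not pass with the clone letter as a replicate block (adjusted p = 0.0582).

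Cyp2d22 (chr15:82370527-82380260, minus strand), a cytochrome P450, reached 3.21, 5.79 and 7.34 CPM in KO clones at 2 h, against 4.15, 6.01 and 5.22 CPM in WT clones. Its KO clones had 0.574, 0.807 and 0.608 CPM at 0 h and 0.403, 0 and 0.629 CPM at 8 h, and its WT clones 0.626, 0.278 and 0.720 CPM and 0.196, 0.253 and 0.232 CPM. The groups at 2 h overlapped, and the KO rise was log2 3.04 ± 0.34. Chst1 (chr2:92599707-92615250, plus strand), a sulfotransferase of keratan sulfate, reached 1.68, 2.13 and 2.85 CPM in KO clones, against 8.05, 6.38 and 5.33 CPM in WT clones, from 0.460, 0.101 and 0.122 CPM in KO clones and 0.250, 0.278 and 0.360 CPM in WT clones. At 8 h it had 0.605, 0 and 0 CPM in KO clones and 0.523, 0.253 and 0.696 CPM in WT clones. Fam46c, a poly(A) polymerase outside the canonical family, averaged 41.3 ± 5.79 CPM in KO cells and 110.3 ± 9.34 CPM in WT cells at 2 h (SD, n = 3 each), from overlapping levels at 0 h. Fignl2 overlapped at 2 h, and the predicted gene 1190002N15Rik was above WT. At 8 h in KO cells Hmox1 and 1190002N15Rik were higher than at 0 h, and Dopey2, Sowahb, Fam46c and Fignl2 were lower. Without the 3 libraries of high abundant-gene share the 8 h change was log2 -0.41 for Sowahb and -0.50 for Fam46c, against -0.47 and -0.52 with all libraries.

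**Figure D3:**
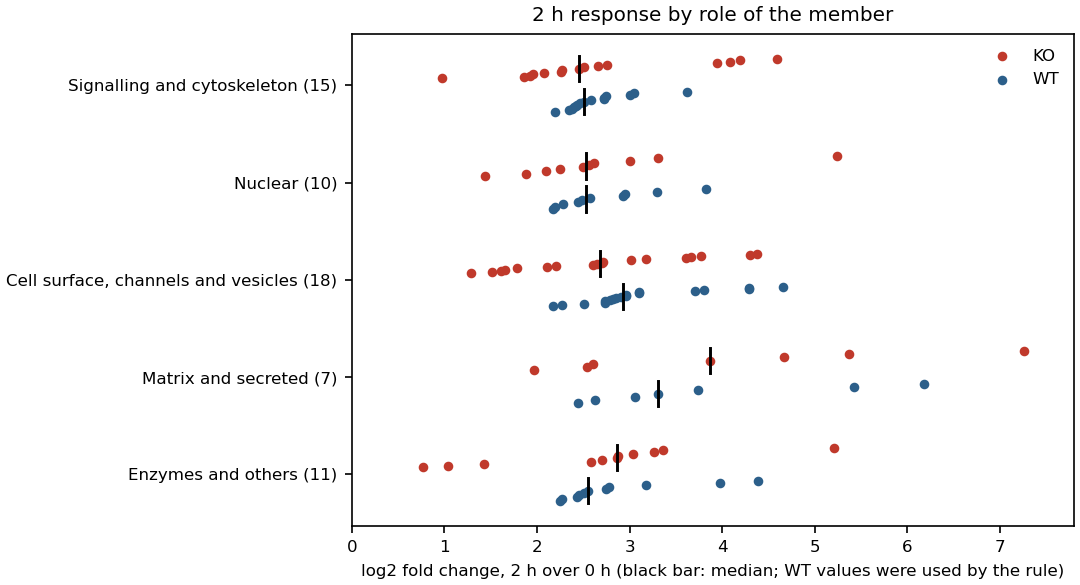
Log2 fold change at 2 h over 0 h for each member (points, KO above WT) in the 5 role groups, with the median as a black bar and the number of members in brackets. KO medians run over 2.45 to 3.87, and the KO points spread more widely than the WT points, whose lower end was fixed by the choice of genes.

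The 16 members above their start at 8 h in KO cells included Baiap2, Adcy5 and Ccnd2 (signalling), Ddx11, Hivep1, Jade2, Zbtb46 and Chd3 (nuclear), Ptprs, Lad1, Igdcc3 and Shisa5 (surface), Col1a1 (matrix), and Hmox1 and 1190002N15Rik. Without the 3 libraries of high abundant-gene share 13 of the 16 remained called, and Igdcc3, Adcy5 and Col1a1 did not. With library totals alone, which move the median of all genes tested to log2 -0.38 in this contrast, 6 remained (Baiap2, Ptprs, Hmox1, Hivep1, Chd3 and Shisa5).

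The same arithmetic was applied to the KO columns, on CPM before TMM scaling, as in the choice of members. Ratios and levels in this part are on that scale unless TMM is named. At least a 4-fold rise at 2 h was met in KO by 38 of the 61 members (62.3%), the 8 h limit by 59 (96.7%), and both by 37 (60.7%). Both limits were met by 0.309% of all genes and by 0.586% of the 10231 genes with a KO 2 h mean of at least 5 CPM. On this scale the median log2 change of all genes tested in KO cells was -0.33 at 2 h and -0.38 at 8 h. On TMM-scaled means without the added 0.2 CPM, more members rose 4-fold at 2 h, such as Rnd2 (4.16), Jade2 (4.73) and Tnfaip8l1 (4.88). More also exceeded 1.6 at 8 h, such as Baiap2 (1.83), Chd3 (1.89) and Hmox1 (1.97). Members meeting the limits on TMM-scaled means, or without the 3 libraries of high abundant-gene share, were not counted. The whole rule run on KO libraries chose 58 genes, of which 36 were members (62.1% of the 58 and 59% of the 61). The 22 others missed 1 or more limits in WT cells: 12 had a WT 2 h over 0 h ratio under 4, 8 had a WT 8 h ratio of at least 1.6, and 5 had a WT 2 h mean under 5 CPM. Jak2, a cytokine receptor kinase just outside the WT limit, had a KO ratio of 4.83. Sox8, a transcription factor, had 2 h over 0 h ratios of 27.4 in KO cells and 62.2 in WT cells, and its WT 8 h ratio was 1.79.

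KO and WT levels of members are set side by side without a test, since the WT values chose the members. At 2 h the KO libraries lay below the WT libraries without overlap for 32 members (52.5%) and above them for 14 (23%), and 15 overlapped. Over all genes tested the shares at 2 h were 19.2% below and 18.6% above. At 0 h KO lay below for 13 members and above for 8, against 17.1% and 15.9% of all genes tested. The median log2 difference between KO and WT cells at 2 h was -0.24 for the members and 0.00 for all genes tested. The members with KO above WT were Baiap2, Usp35 and Cxxc4 (signalling), Hivep1 and Brdt (nuclear), Ptprs, Lad1, Slc24a3 and Rhbdl3 (surface), Nptx1 and Plat (secreted), and Hmox1, Sec14l5 and 1190002N15Rik. The widest gaps the other way were those of Chst1, Dopey2, Hic1, Elfn2 and Fam46c, whose WT means were 2.67 to 2.97 times the KO means. The KO response minus the WT response at 2 h had a median of log2 -0.20, ran over -1.50 to 2.78, and was above 0 for 26 members and below 0 for 35. Since high WT values at 2 h were a condition of the choice, a KO level below WT at 2 h is partly set by it.

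**Figure D4:**
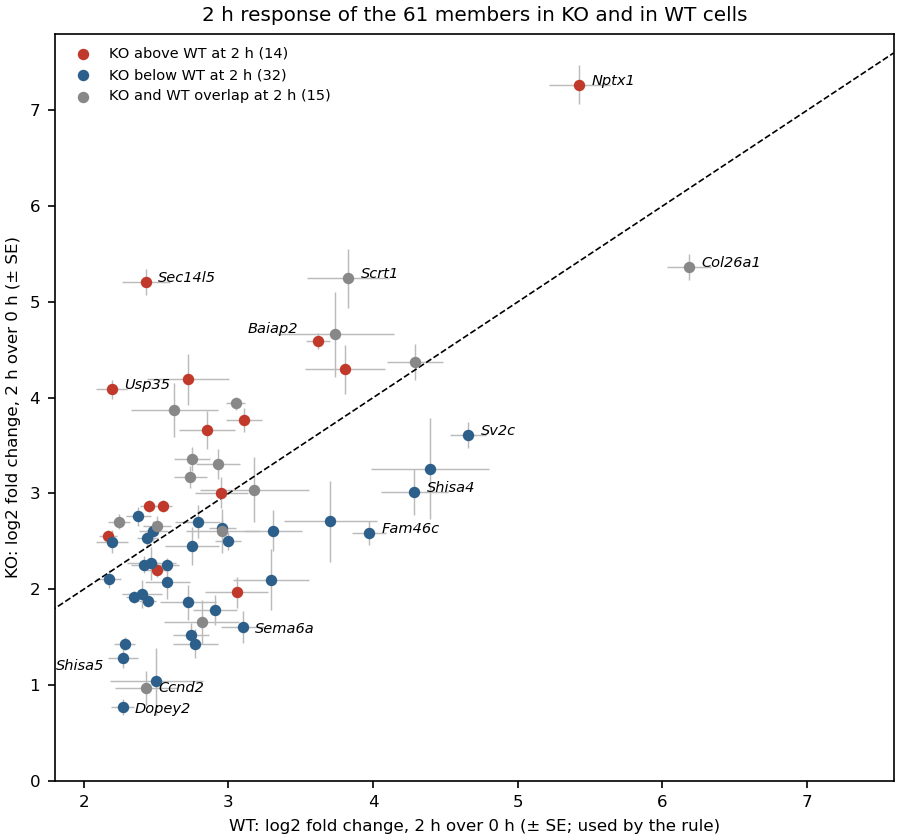
Log2 fold change at 2 h over 0 h in KO cells (vertical axis) against that in WT cells (horizontal axis), ± SE, for the 61 members, coloured by whether the 3 KO libraries at 2 h lie above, below or among the 3 WT libraries. The dashed line marks equal change; Sec14l5, Usp35 and Nptx1 lie above it, and Dopey2, Sema6a and Sv2c below it.

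The 131 sustained genes, chosen on the same WT libraries with the same 2 h limits, were set beside them without a test. Of these, 130 were higher at 2 h in KO cells, with a median log2 change of 2.35. At 2 h KO lay below WT without overlap for 122 of them (93.1%) and above for 4 (3.05%), against 52.5% and 23% of the members, and their median log2 difference between KO and WT cells was -1.20. In KO cells at 8 h 127 of the sustained genes were above 0 h, with a median log2 change of 2.47.

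Other genes known from the early response to growth factors were taken from lists, whose counts stand beside 31.5% higher, 35.2% lower and a median log2 change of -0.05 over all genes tested. Outside the left-out families, 21 of 29 tested immediate early genes rose at 2 h in KO cells and 6 fell, with a median log2 change of 0.57. The synaptic gene Arc rose by log2 5.37 ± 0.10, the small GTPase Rrad by 7.46 ± 0.23, the urokinase receptor Plaur by 3.83 ± 0.086 and the bZIP factor Maff by 3.26 ± 0.096, while the nuclear receptor Nr4a2 fell by 1.20 and the growth arrest gene Gadd45b fell by 1.64. None of the 32 genes listed was a member. Of 9 tested EGF receptor and cytokine ligands, 2 rose (Hbegf and Vegfa) and 2 fell (Lif and Bdnf), with a median log2 change of 0.15. Among 9 tested epidermal differentiation genes 7 rose, led by Lor with log2 9.21 ± 0.26, and 2 fell (median 3.06). Among 13 tested SRF and actin genes 6 rose, none by more than log2 1.05 (Actg1), and 2 fell (median 0.33). Among 10 tested neuronal activity genes 6 rose and 2 fell (median 0.34), and Nptx1 was the only member on any list.

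The members lie on 16 chromosomes and are all protein-coding. Their median span was 31.5 kb, against 18.1 kb for the sustained genes and 26.0 kb for all tested genes. Another gene of the table overlaps 7 of them, and in 1 case that gene was itself more than log2 1 up at 2 h in WT cells, Vat1 beside Rnd2, at 1.03. For 12 members a gene within 10 kb that does not overlap them was more than log2 1 up there, such as Midn beside Cbarp, at 3.37. Trp53i11 and Tspan18 are among the 12 as each other's neighbour, which their choice as members brings with it. The share of all tested genes with such a neighbour was not counted. The strand setting of the counting is not known here, so reads of overlapping or opposite genes cannot be told apart.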

How the data were processed

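The authors deposited raw counts of reads for 25897 gene symbols in 18 libraries of ethynyl uridine-labelled RNA. STAR, featureCounts, DESeq and the mm10 build are named in the submitters' processing notes. Versions, the annotation release, the strand setting and intron counting were not given in the sources used here. No spike-in is named in the labels, so changes are relative to the other genes.

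Members were chosen on plain CPM. The members and gene lists were chosen with earlier results of these data known, and the role groups after the members were known. Counts were fitted with edgeR 4.0.16 in R 4.3.3 (filterByExpr, TMM, quasi-likelihood test, 6 group means over 18 libraries). That left 14128 genes, over which p-values were Benjamini-Hochberg adjusted and called at 0.05, with no p given for contrasts that contain WT libraries. The script was checked on simulated counts. With 6691177 to 14541145 counts per library, the limits that a count of 0 allows cover counting error only, while SE and SD include the spread between clones. By chi-square tests, no 2 replicates of a group were within sampling noise of each other. The p-values measure the spread between clones of one line.

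The labels give the clone letters A, B and C in every group, so same-letter libraries share a clone. Their deviations from group means correlated at 0.0164 on average over 45 pairs of libraries (-0.101 to 0.0826), and a fit with the letter as a block was an alternative. Values in every sample are given for 28 members: the 10 highest in WT at 2 h, the 8 highest and 8 lowest KO 2 h changes among members with at least 5 CPM in KO or WT at 2 h, the 5 highest KO 8 h changes, and those nearest each limit, with some genes not reported here. Other genes named with values were picked after these were seen, Sv2c, Lad1, Hic1, Fam46c, Cxxc4, Plat and Adamts1 among them. Alternatives changed scaling, filter, tool (DESeq2 1.42.0), libraries and the limits of the choice. Positions came from GENCODE M21 for 59 members and, for Dopey2 and Fam46c, by synonym from RefSeq GRCm38.p6. Promoters came from RefSeq.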

Additional observations from a re-analysis of the deposited data

Results flagged for a closer look

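Sowahb, an ankyrin-repeat protein, moved in opposite directions at 8 h in KO and WT cells. Its log2 change at 8 h over 0 h, with 0.2 CPM added, was -0.32, -0.27 and -0.85 in KO clones A, B and C and 0.15, 0.19 and 1.12 in WT clones. All 3 KO clones were thus lower than at the start and all 3 WT clones higher, and the mean change in KO minus that in WT was -0.96. The KO clones had started above the WT clones, at 4.84 to 6.20 CPM against 2.88 to 4.32 CPM. In KO cells the fall sat at the threshold (edgeR quasi-likelihood test, adjusted p = 0.04996). How many of all genes moved in opposite directions was not counted. This difference between KO and WT was not tested, since WT values chose the gene.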

How the results depend on the processing

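The 2 h rise in KO cells was called for 60 or 61 members in every alternative, and Trim72 was the one lost. With library totals in place of TMM, which shifted the median of all tested genes to log2 -0.33 at 2 h and -0.38 at 8 h, 6 members were higher and 20 lower at 8 h than at 0 h, in place of 16 and 8, and Ddx11 turned to -0.085. Leaving out 1 library gave 60 to 61 members higher at 2 h, 14 to 16 higher and 4 to 7 lower at 8 h, with 4 when KO 8 h clone A was left out, and 58 to 59 lower at 8 h than at 2 h. Without the 3 libraries of high abundant-gene share, an alternative chosen after seeing the data that leaves 1 KO library at 8 h, assumed to vary like the other groups, the counts at 8 h were 15 higher and 6 lower (13 of the 16 and 4 of the 8 among them: Gnao1, Sv2c, Fam46c and Sowahb were lost and Col5a1 and Usp35 came in), and Col1a1 turned to -0.34. With the clone letter as a replicate block, 61 members were higher at 2 h, 16 higher and 7 lower at 8 h, and 58 lower at 8 h than at 2 h, and it ended only the 8 h call of Sowahb. DESeq2 called 61 at 2 h and 16 higher and 6 lower at 8 h. A 2 h fold minimum of 3 gave 102 members, 65 of which met both fold limits in KO, and one of 6 gave 25 and 11, in place of 61 and 37. Leaving out 1 WT clone gave 60 to 70 members and 33 to 39 of them in KO, and TMM-scaled CPM gave 74 and 43. The causes of these shifts were not tested. Members at a few counts, such as Elfn2 and Chst1, are limited by depth.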
